A study of Mus musculus with 6 samples.

Results

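The genes described here encode the proteins of the cytosolic ribosome, and their acetylation was measured in alveolar macrophages (AMs), which clear inhaled particles and surfactant from the lung. Members were the protein-coding genes of the GENCODE vM21 annotation (mm10, the 19 autosomes and X) whose symbol is Rpl or Rps followed by digits and at most 1 letter, together with Rplp0, Rplp1, Rplp2 and Rpsa. This gave 80 of 21644 protein-coding genes, 49 of the large subunit and 31 of the small subunit, spread over 19 of 20 chromosomes. The rule used names only and no measured value. The mark was lysine 27 acetylation on histone H3 (H3K27ac), which is found at promoters and enhancers in use, and the assay was HT-ChIPmentation, in which the transposase Tn5 inserts sequencing adapters into antibody-bound chromatin on beads. The cells were sorted from the bronchoalveolar lavage of 9-wk-old wild-type C57BL/6J mice. There was a single group with no treatment, and the libraries were 1 made with an Active Motif antibody and 2 replicates made with a Cell Signaling antibody, called with 3 inputs as background. Whether the replicates are separate animals is not stated, so their spread may be technical.

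A ribosome holds its RNAs and proteins in fixed proportion, so cells need these genes active together. They belong to the most strongly transcribed genes of growing cells. Most are short, many carry small nucleolar RNA genes in their introns, and their mRNAs start with a run of pyrimidines (a terminal oligopyrimidine, or TOP, tract) through which mTOR controls their translation. Mammalian genomes also hold many processed pseudogenes of them, and a few functional paralogs that are used in particular tissues.

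Transcription start site (TSS) sequences are given first because they show the feature by which the mRNAs of this family are known. In 10 of 80 members (12.5%) the annotated reference TSS was a C followed by at least 4 pyrimidines, against 2.27% of the 21640 protein-coding promoters that were read. The share was 2.41% of promoters with a peak in all 3 libraries. It was 5.13% (4 of 78) for mitochondrial ribosomal protein genes and 0 of 39 for proteasome genes. Translation factors and other genes known for TOP mRNAs had the same share as members, 12.5% (2 of 16). The windows below are shown for 8 of the 10 members. They run from 40 bases before the TSS to the 20 bases that start with it, on GRCm38 (mm10). They read 5′ to 3′ on the strand of the gene, and the pyrimidine run that covers the TSS is in capitals.
Rpl30, chr15:34443203-34443262, minus strand: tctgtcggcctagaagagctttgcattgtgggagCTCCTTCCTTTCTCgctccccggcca
Rpl36, chr17:56613376-56613435, plus strand: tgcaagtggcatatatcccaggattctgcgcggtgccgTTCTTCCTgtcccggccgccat
Rpl37, chr15:5116605-5116664, plus strand: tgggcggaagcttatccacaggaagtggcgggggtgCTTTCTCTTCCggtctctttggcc
Rpl37a, chr1:72711250-72711309, plus strand: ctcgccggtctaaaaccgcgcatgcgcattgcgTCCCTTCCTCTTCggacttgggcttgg
Rpl4, chr9:64173335-64173394, plus strand: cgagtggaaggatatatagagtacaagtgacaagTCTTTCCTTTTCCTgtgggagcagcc
Rps2, chr17:24720070-24720129, plus strand: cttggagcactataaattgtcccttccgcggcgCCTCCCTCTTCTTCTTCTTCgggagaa
Rps21, chr2:180257337-180257396, plus strand: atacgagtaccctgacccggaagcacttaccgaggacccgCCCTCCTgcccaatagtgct
Rps24, chr14:24490678-24490737, plus strand: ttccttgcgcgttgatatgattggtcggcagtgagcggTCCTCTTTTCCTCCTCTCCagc
Rps2 had the longest of the runs shown, with 20 bases, and Rps21 the shortest, with 7 bases. The same window is given for the 3 members that had no promoter peak in any library, and no pyrimidine run of this kind covered their TSS. A C followed by at least 4 pyrimidines was likewise absent at the TSS of 67 of the 77 members with a peak. This count rests on 1 annotated base per gene, and whether the mRNAs start at that base was not tested. A run of at least 8 pyrimidines lay within 20 bases of the annotated TSS in 33 of the 77.
Rpl3l, chr17:24727780-24727839, plus strand: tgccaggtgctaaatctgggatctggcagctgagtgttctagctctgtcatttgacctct
Rpl10l, chr12:66284382-66284441, minus strand: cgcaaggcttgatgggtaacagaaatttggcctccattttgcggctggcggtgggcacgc
Rpl39l, chr16:10170188-10170247, plus strand: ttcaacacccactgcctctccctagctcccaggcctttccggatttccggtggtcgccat

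A palindrome was the second sequence feature found more often in members than in all promoters. TCTCG followed by its own reverse complement CGAGA, searched on both strands from 250 bases before the TSS to 50 bases from it, was found in 7 of 80 members (8.75%), against 0.601% of all promoters and 1.16% of promoters acetylated in all 3 libraries. Of 39 proteasome promoters 2 held the palindrome (5.13%), as did 1 of 78 mitochondrial ribosomal protein promoters (1.28%). The windows below show it in capitals with 15 bases on either side, on GRCm38 (mm10) and the strand of the gene, for 5 of these members.
Rpl10a, chr17:28328519-28328558, plus strand: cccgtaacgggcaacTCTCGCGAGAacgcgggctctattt
Rpl26, chr11:68901525-68901564, plus strand: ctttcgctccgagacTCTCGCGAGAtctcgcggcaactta
Rpl4, chr9:64173117-64173156, plus strand: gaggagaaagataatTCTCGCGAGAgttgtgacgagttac
Rps28, chr17:33824539-33824578, minus strand: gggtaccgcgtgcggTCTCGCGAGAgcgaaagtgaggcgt
Rps6, chr4:86857394-86857433, minus strand: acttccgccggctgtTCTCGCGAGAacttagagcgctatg
In Rps28 and Rps6 the palindrome began 1 and 6 bases before the TSS, and in Rpl4 it began 243 bases before it. Its position was therefore not fixed. CCGGAAG, the core bound by ETS family factors, was found in 28 members (35.0%), against 11.3% of all promoters and 21.5% of those with a peak in all 3 libraries. The match is not particular to the cytosolic ribosome in these lists, since 37.2% of the mitochondrial ribosomal protein promoters held it as well. GGGCGG was found in 52.5% of members, against 45.8% of all promoters and 64.7% of acetylated ones. TATAAA between 15 and 40 bases before the TSS was found in 1 member (1.25%), against 2.46% of all promoters. AAGATGGC, CACGTG and GAGGAAGT, also searched, were found in 6.25%, 12.5% and 2.5% of members. The shares of promoters with a peak in all 3 libraries were 5.74%, 10.6% and 3.26%. These matches describe letters in a window and not bound sites.

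Long pyrimidine runs near the TSS, counted whatever the annotated first base, were also more frequent in members than in all promoters. A run of at least 8 pyrimidines lay within 20 bases of the TSS in 33 members (41.2%), against 15.9% of all promoters. The share was 14.1% for mitochondrial ribosomal proteins and 12.8% for proteasome genes, and 8 of 16 for the translation factors and other genes known for TOP mRNAs, such as Eef1a1 and Eef2. Among the 77 members with a peak, the 10 with the C and pyrimidine start had median folds of 16.8, 26.9 and 35.6 in the Active Motif library and Cell Signaling replicates 1 and 2, against 12.8, 29.6 and 33.6 in the other 67. The order of these groups thus differed between libraries.

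The cells carried the marks of their label. All 10 AM marker genes (among them Siglecf, Marco, Pparg and Car4) had a promoter peak in each library. Of the matched defining genes of other cells, none had one in the Active Motif list. Scgb1a1, Scgb3a2 (airway secretory cells) and S100a8 (neutrophils) had one in Cell Signaling replicate 1, and S100a8 in replicate 2. The libraries held 36364 (Active Motif), 56175 and 49139 peaks (Cell Signaling replicates 1 and 2) over 26.1, 45.8 and 59.8 Mb. The peak lists give no read depth, and depth was not used here, so a missing peak means that none was called at a q-value of 0.05.

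Nearly every cytosolic ribosomal protein gene had an acetylated promoter in AMs. A peak lay within 1 kb of a TSS in 77 of 80 members (96.2%) in the Active Motif library, against 40.9% of all protein-coding genes. In Cell Signaling replicate 1 the count was again 77, against 47.8% of all genes, and in replicate 2 it was 77, against 48.8%. They were the same 77 genes, since 77 members had a peak in all 3 libraries, against 40.8% of all genes. With both Cell Signaling replicates alone the count was 77, against 46.5%. All 31 small subunit genes and 46 of 49 large subunit genes had a peak. No test is given for these counts, since the members were not drawn at random and genes are not replicates.

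The 3 members without a promoter peak were Rpl3l, Rpl10l and Rpl39l, which are paralogs of Rpl3, Rpl10 and Rpl39 used mainly in striated muscle (Rpl3l) and in male germ cells (Rpl10l and Rpl39l). Rpl10l had no acetylated base within 5 kb of its TSS in any library. Rpl39l had 80 bases in Cell Signaling replicate 1 and none in the other libraries. Rpl3l has a second annotated start 4.865 kb downstream of its reference TSS (the single start taken for each gene where position is measured), and no peak came within 1 kb of either. Within 5 kb of the reference TSS it had 668, 1125 and 1296 acetylated bases in the Active Motif library and Cell Signaling replicates 1 and 2, all upstream, where Ndufb10, a subunit gene of the first respiratory complex, started 3.34 kb away. Within 5 kb of the second start it had 2478, 2553 and 2818 bases, and Msrb1 (chosen after its values were seen) started 3.96 kb from there. Another paralog, Rps27l, which is induced by p53, did have a promoter peak in each library, with folds of 8.17, 22.3 and 25.8. Rps4l is annotated as a transcribed processed pseudogene and was therefore not a member.

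The parent genes of these paralogs all had promoter peaks. Rpl3, a core protein near the catalytic centre, had promoter folds of 14.1 (Active Motif), 31.9 (Cell Signaling replicate 1) and 38.6 (replicate 2). At Rpl10, which joins the large subunit late in its assembly, the folds were 25.6, 60.7 and 47.1 in the same libraries. Rpl39 was weaker, with folds of 8.10, 15.4 and 29.5. Fold here is the enrichment over local background that the authors' peak caller gave, taken for the strongest value among promoter peaks.

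Promoter peaks of members were stronger than those of most acetylated genes, and the lead was moderate. The median fold was 13.0 for members and 11.1 for all acetylated genes in the Active Motif library, 29.6 and 19.2 in Cell Signaling replicate 1, and 33.6 and 26.9 in replicate 2. When each gene with a peak was ranked by the −log10 q of its strongest promoter peak, the median member stood at percentile 62.7, 70.1 and 64.8 in these libraries, where the median of all genes lay near 50 by construction. A fold above the median of all acetylated genes was found in 48 of 77 members in the Active Motif library, 53 in Cell Signaling replicate 1 and 59 in replicate 2. Above percentile 75 were 25, 32 and 27 members, and below percentile 25 were 8, 3 and 3.

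**Figure D1:**
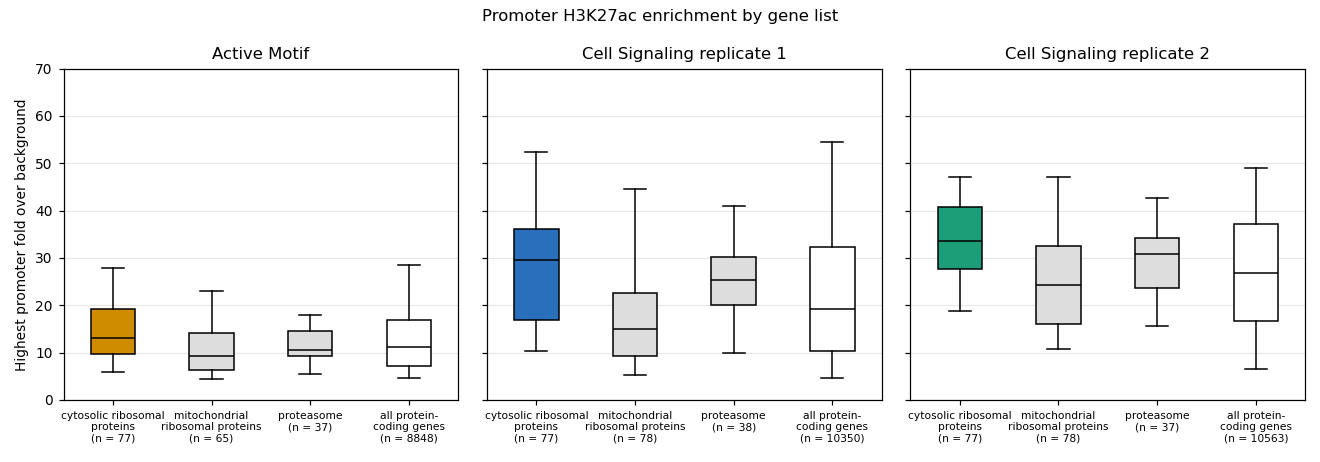
Highest promoter fold over background (vertical axis, linear) for genes with a promoter peak, in 4 gene lists and 3 libraries. Boxes span the quartiles with the median as a line and whiskers reach the 5th and 95th percentiles over genes; the median of cytosolic ribosomal protein genes was 13.0, 29.6 and 33.6, against 11.1, 19.2 and 26.9 for all protein-coding genes.

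In the Active Motif library the highest folds were those of Rpl4 and Rpl19, tied at 34.5, and of Rplp1, an acidic protein of the stalk that recruits elongation factors, at 28.5. In Cell Signaling replicate 1 they were those of Rpl10 and Rpl18, tied at 60.7, and Rpl30 at 53.4. In replicate 2 they were those of Rpl4 (48.9), Rpl19 (48.7) and Rpl18 (47.8). Rpl4 lines the tunnel through which the nascent chain leaves the ribosome, and Rpl19 spans the subunit interface. No small subunit gene was in these leading positions, but the small subunit as a whole did not trail, with median folds of 13.0, 32.3 and 36.2, against 13.0, 27.9 and 32.8 for the large subunit.

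The genes of the stalk proteins and Rpsa had a promoter peak in each library. Rplp0, the base of the stalk, had folds of 14.1 (Active Motif), 27.3 and 33.7 (Cell Signaling replicates 1 and 2). Rplp2, the partner of Rplp1, had folds of 21.7, 43.8 and 39.6, and Rplp1 itself had 28.5, 41.1 and 44.0. The folds of Rpsa, the laminin receptor precursor that sits on the small subunit, were 21.7, 32.3 and 44.3. All 4 were above the median of acetylated genes in each library.

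Among small subunit genes, Rps3, which lies at the mRNA entry, had folds of 17.9, 30.0 and 33.6 in the Active Motif library and Cell Signaling replicates 1 and 2. Rps6, the target of the S6 kinases downstream of mTOR, had 15.3, 31.5 and 36.2. Rps27a, which is made as a fusion with ubiquitin, had 20.9, 35.0 and 40.3. At Rps19, the gene most often mutated in human Diamond-Blackfan anaemia, they were 14.7, 40.4 and 41.02. Rps4x (chrX:102184941-102189394, mm10, minus strand), the X-linked copy of a small subunit gene, was one of the weakest members, with 5.12, 10.4 and 16.4.

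Rpl5 and Rpl11 enter the large subunit together with its smallest RNA and, when free, bind the p53 inhibitor Mdm2. By fold, both genes were below or near the middle. Rpl5 had folds of 7.85, 14.2 and 23.8, all below the median of acetylated genes. Rpl11 had 10.8, 22.7 and 31.8, of which the Active Motif value was below that median. Ranked by −log10 q, Rpl11 stood above the middle, at percentile 63.0, 57.0 and 59.8, and Rpl5 below it, at 33.8, 35.8 and 39.2. Rpl38, known in mice for the translation of Hox mRNAs, had 9.48, 16.1 and 22.9 and lay below it in each library. The weakest members by fold, chosen after their values were seen, were Rpl10a in the Active Motif library (4.66) and Rps24 in both Cell Signaling replicates (8.46 and 12.4).

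The 22 members whose human counterparts are mutated in Diamond-Blackfan anaemia, a failure of red cell production, all had a promoter peak in each library. So did 77 of all 80 members, against 40.8% of all protein-coding genes. The median folds of the 22 were 11.5, 21.7 and 31.0, against 13.0, 29.6 and 33.6 for all members. Their median percentile of strength was 51.3, 55.0 and 57.9. The 4 members on X (Rpl10, Rpl36a, Rpl39 and Rps4x) had median percentiles of 19.9, 32.1 and 41.05, and their folds reached from 5.12 at Rps4x to 25.6 at Rpl10 in the Active Motif library.

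Acetylated length was above the median of acetylated genes in 52 of the 77 acetylated members for the Active Motif antibody, 47 in Cell Signaling replicate 1 and 47 in replicate 2. Fold was above its own median in 48, 53 and 59 of them. Length was counted as the bases inside peaks within 5 kb of a TSS, at the TSS with the most. Over all 80 members the median was 1484 bases in the Active Motif library, 1834.5 in Cell Signaling replicate 1 and 2101.5 in replicate 2. Among genes with a promoter peak it was 1488 bases for members and 1274 for all genes (Active Motif), 1837 and 1750 (Cell Signaling replicate 1), and 2115 and 2013 (replicate 2). The median member stood at percentile 58.5, 52.8 and 52.9 of acetylated genes by length. The length was larger in Cell Signaling replicate 1 than in the Active Motif library in 75 of 77 members with a peak, and larger in replicate 2 than in replicate 1 in 73. The libraries also differed in the bases they covered genome-wide. Between the Active Motif and the Cell Signaling libraries, antibody, sequencing run and depth cannot be told apart, and the part of depth in the difference between the replicates was not tested.

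**Figure D2:**
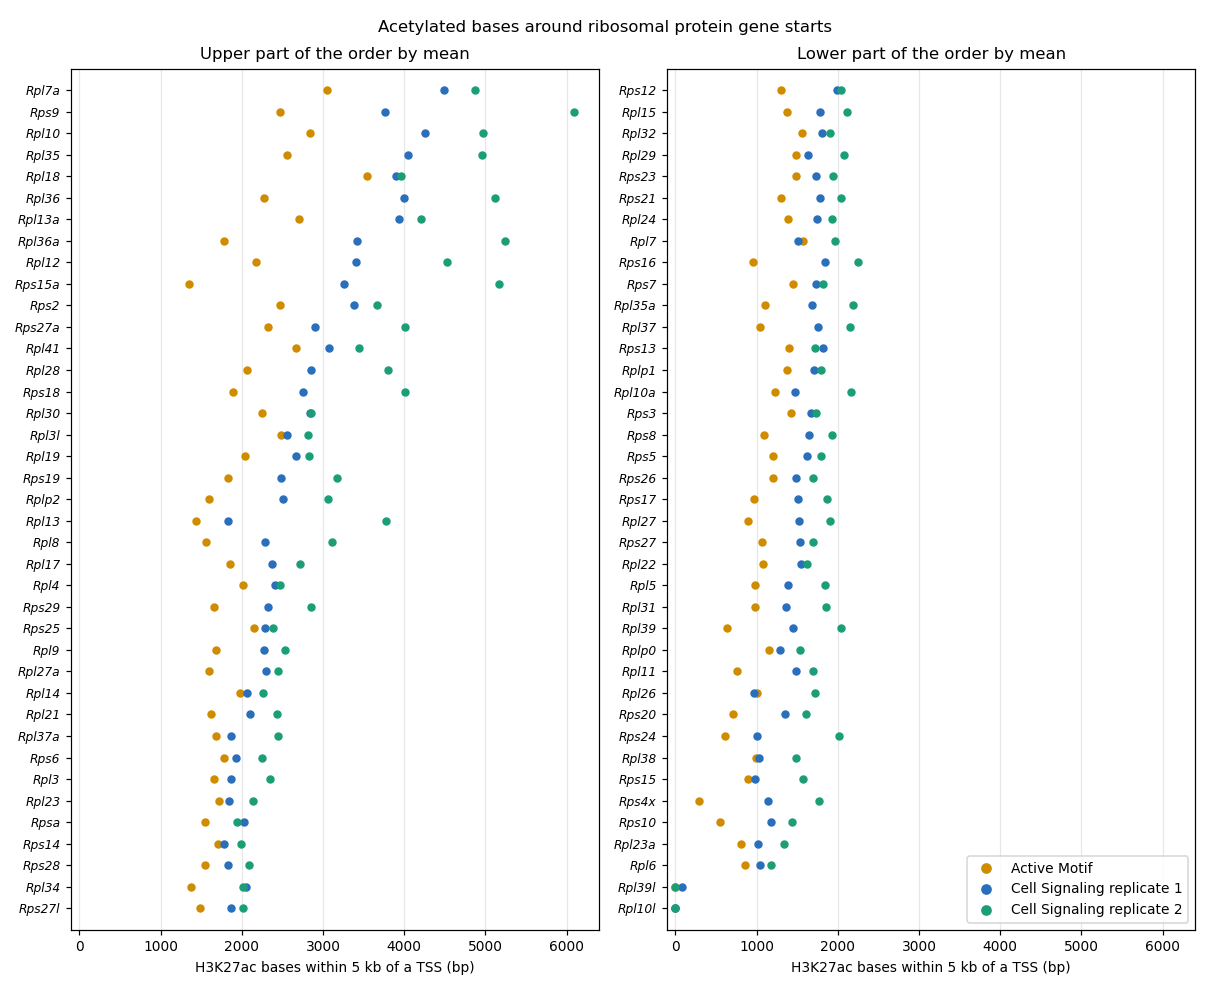
Bases inside H3K27ac peaks within 5 kb of a TSS (horizontal axis, bp) for 78 of the 80 members, ordered by the mean of the 3 libraries; each point is 1 library. Most members lie between 1000 and 3000 bp, and Rpl10l and Rpl39l lie at or near 0.

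The members with the most acetylated bases were Rpl7a, Rps9, Rpl10, Rpl35 and Rpl18. Rpl7a, which carries several small nucleolar RNA genes, had 3053 (Active Motif), 4495 and 4871 bases (Cell Signaling replicates 1 and 2). Rps9 had 2469, 3767 and 6090, the last being the highest value of any member in any library. Rpl10 had 2835, 4261 and 4969 bases, and Rpl35, a protein at the exit of the tunnel, had 2562, 4048 and 4953. For Rpl18 they were 3539, 3903 and 3967, the most in the Active Motif library of any member. Length and fold did not go together at Rpl35, whose folds were only 6.21, 12.3 and 21.4. Upstream of the Rpl35 reference TSS lay 1742, 2704 and 3316 of its bases, on the side where Arpc5l started 2.45 kb away. At Rpl7a, 2065, 2865 and 2936 bases lay upstream, where Med22 started 87 bp away (both neighbours chosen after their values were seen).

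The fewest bases, among members with a promoter peak, were found at Rpl6, Rpl23a, Rps10, Rps4x and Rps15. Rpl6 had 856, 1046 and 1172 bases in the Active Motif library and Cell Signaling replicates 1 and 2, and Rpl23a, which contacts the nascent chain at the tunnel exit, had 806, 1015 and 1339. Rps10 had 552, 1178 and 1431, and Rps15 had 897, 984 and 1571. At Rps4x the values were 285, 1139 and 1769, a wide spread for a short signal. Across the 77 members the order of lengths was alike between libraries, with Spearman's rho of 0.90 between the Active Motif library and Cell Signaling replicate 1, 0.80 between the Active Motif library and replicate 2, and 0.90 between the replicates. Over all 8831 genes with a peak in all 3 libraries the same values were 0.91, 0.84 and 0.93. These are across genes, which share their libraries and inputs, and are given as a description.

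Members with a neighbouring start had more acetylated bases. Another protein-coding gene started within 5 kb of the reference TSS in 30 members. These had medians of 1953, 2528 and 2946 bases in the Active Motif library and Cell Signaling replicates 1 and 2, against 1374, 1747.5 and 1966 bases for the 50 with no such neighbour. Of the 5 members with the most bases 3 had such a neighbour, as did 3 of the 5 with the fewest. In 11 members a neighbour on the opposite strand had a start within 1 kb upstream of the reference TSS. Shares of all genes with such neighbours are not given, so the counts of 30 and 11 are not set against a background. Between nearest annotated starts, the distance was 55 bp for Rpl12 with Lrsam1 and 69 bp for Rpl15 with Nkiras1. It was 69 bp for Rpl18 with Sphk2 and 263 bp for Rpl35a with Iqcg. The Lrsam1 start 55 bp away lay downstream of the Rpl12 TSS, and another Lrsam1 start met the rule. Peaks at such pairs cannot be assigned to 1 of the genes. At Rpl36a, chosen after its values were seen, all 1777 Active Motif bases lay upstream, on the side of Btk (the kinase of B cell receptor signalling, 2.51 kb away), and no base of the gene itself was covered in that library.

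Peaks at members covered the start in most cases, reached further into the gene than away from it, and seldom reached 2000 bp downstream. Among members with a peak, the base at the reference TSS lay inside a peak in 63 of 77 (81.8%) in the Active Motif library, 75 (97.4%) in Cell Signaling replicate 1 and 76 (98.7%) in replicate 2, against 65.0%, 80.2% and 85.9% of all genes with a peak. Proteasome genes with a peak had similar shares (81.1%, 94.7% and 100%). Those of mitochondrial ribosomal protein genes were lower (72.3%, 85.9% and 97.4%). At 500 bp downstream the shares were 94.8%, 98.7% and 100% of members, against 63.3%, 71.7% and 81.3% of all genes. At 1000 bp downstream they were 23.4%, 64.9% and 85.7% of members, against 29.2%, 40.4% and 45.6%. Members were thus covered more often there in both Cell Signaling replicates and less often in the Active Motif library. At 2000 bp downstream a peak covered 1.30%, 3.90% and 7.79% of members, against 10.2%, 14.4% and 18.6%, and at 3000 bp 1.30%, 2.60% and 1.30%, against 6.83%, 9.74% and 13.3%. At 1000 bp upstream the shares were 11.7%, 19.5% and 26.0% of members, against 16.9%, 27.1% and 31.0%. Genes entered these shares by a peak near any annotated start, but position was measured from the reference TSS alone. Genes were not matched for length.

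**Figure D3:**
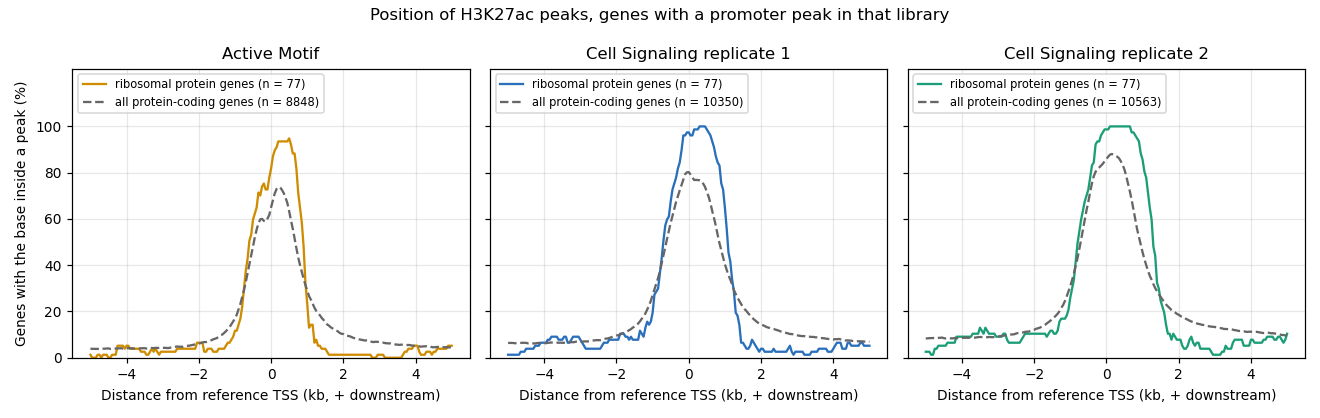
Share of genes whose base at a given distance from the reference TSS (horizontal axis, kb, positive downstream) lies inside an H3K27ac peak (vertical axis, %), for members with a promoter peak (solid, 77 genes) and all protein-coding genes with one (dashed) in each library. At 500 bp downstream the solid lines reach 94.8%, 98.7% and 100%, against 63.3%, 71.7% and 81.3%, and at 3000 bp downstream they lie below the dashed lines.

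The median distance of the downstream edge of the peak over the TSS was 866 bp (quartiles 741.5 and 965) in the Active Motif library, 1058 bp (896.5 and 1253.5) in Cell Signaling replicate 1 and 1273.5 bp (1113.25 and 1484.5) in replicate 2. Over all genes with such a peak the medians were 705, 866 and 968.5 bp, with lower quartiles of 401, 516.75 and 678 bp and upper quartiles of 1105, 1336 and 1544.5 bp. Mitochondrial ribosomal protein genes had medians of 523, 709 and 772 bp, with quartiles of 379.5 and 643.5, 482.5 and 823.5, and 629.25 and 890.5 bp. Their quartiles, too, lay closer together than those of all genes. More acetylated bases lay downstream than upstream of the reference TSS in 54, 56 and 57 of 77 members (70.1%, 72.7% and 74.0%), against 61.0%, 60.4% and 61.3% of all genes. Proteasome genes had shares at least as high in the Active Motif library (83.8%) and Cell Signaling replicate 1 (81.6%), so the downstream excess was not particular to ribosomal protein genes.

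**Figure D4:**
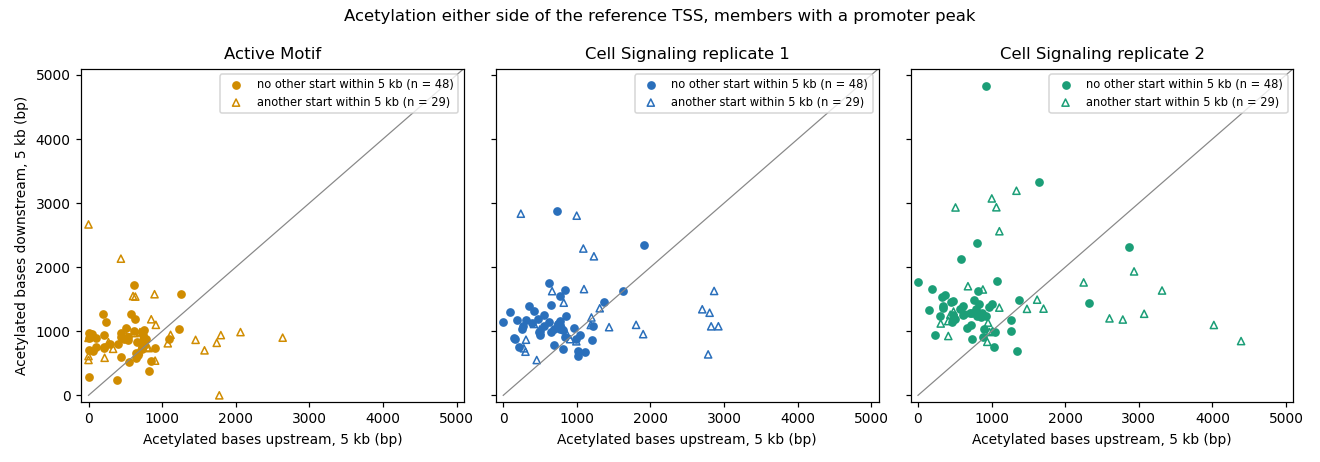
Acetylated bases within 5 kb upstream (horizontal axis, bp) and downstream (vertical axis, bp) of the reference TSS for the 77 members with a promoter peak, 1 panel per library; filled circles have no other gene's start within 5 kb of the reference TSS (48 genes), open triangles have one (29 genes), and the line marks equal values. Above the line lie 54 members in the Active Motif library, 56 in Cell Signaling replicate 1 and 57 in replicate 2.

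The start itself was left uncovered in 14 members in the Active Motif library, among them Rpl5, Rps10, Rps15 and Rps4x. Of these, only Rps24 and Rps4x were uncovered in Cell Signaling replicate 1, and only Rps4x in replicate 2. At Rps4x the summit lay 557, 472 and 377 bp downstream of the TSS in the Active Motif library and Cell Signaling replicates 1 and 2, within the gene.

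Peaks covered a larger share of the gene in members than in all genes, and members are shorter; genes were not matched for length. The median gene length was 3328.5 bp for members and 17378.5 bp for all genes. Peaks covered a median of 26.5%, 35.1% and 42.9% of the gene among members with a peak, against 4.04%, 5.83% and 7.53% of all genes with one. At least 50% of the gene was covered in 9 members in the Active Motif library, 15 in Cell Signaling replicate 1 and 30 in replicate 2, against 257 of 8848, 488 of 10350 and 716 of 10563 among all genes with a peak. Rpl41, the gene of the smallest ribosomal protein, was covered by 92.5% in the Active Motif library and 100% in both Cell Signaling replicates (chosen after its values were seen).

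Small nucleolar RNA genes, which guide the modification of ribosomal RNA, lay inside 29 of 80 members. The share among all protein-coding genes is not given, so this count is not set against a background. All 29 had a promoter peak in each library, as did 48 of the 51 members without such a gene, against 40.8% of all protein-coding genes. The 29 had medians of 1563, 1869 and 2245 acetylated bases in the Active Motif library and Cell Signaling replicates 1 and 2. The 51 had medians of 1444, 1781 and 2036 bases. The gap between these medians was smaller than that between members with and without a neighbouring start.

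Distal peaks, those with a midpoint over 3 kb from any TSS, were assigned to the gene with the nearest TSS and were few around members. Among members with a promoter peak, 13.0%, 22.1% and 31.2% had at least 1 in the Active Motif library and Cell Signaling replicates 1 and 2, against 34.8%, 47.4% and 49.2% of all genes with a promoter peak. The mean was 0.597, 1.16 and 1.09 peaks per member, against 1.93, 2.98 and 2.75. Mitochondrial ribosomal protein genes (16.9%, 26.9% and 28.2%) and proteasome genes (16.2%, 28.9% and 32.4%) were also low. Members with many of these peaks, chosen after their values were seen except Rpl5, were Rps20 with 6, 23 and 25, Rpl5 with 13, 10 and 10, and Rpl14 with 5, 14 and 9. The distance to the next gene was not matched in this comparison.

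The ribosome of mitochondria offers the nearest comparison by function. Its 78 genes had a promoter peak in 65 cases with the Active Motif antibody and in all 78 in each Cell Signaling replicate, whereas the cytosolic members were at 77 of 80 throughout. Among genes with a peak, the median fold was 13.0 for cytosolic and 9.23 for mitochondrial ribosomal protein genes in the Active Motif library, 29.6 and 14.99 in Cell Signaling replicate 1, and 33.6 and 24.2 in replicate 2. Median acetylated bases were 1488 and 801, 1837 and 1217.5, and 2115 and 1488, in the same order. Proteasome genes lay between these lists by fold, with 10.7, 25.4 and 30.9, and by length, with 1216, 1609.5 and 1758 bases. Of 39 proteasome genes, 37 had a peak in all 3 libraries.

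Genes of other parts of the translation apparatus had a promoter peak in most cases, against 40.8% of all genes with one in all 3 libraries. Fau and Rack1 encode ribosomal proteins under other names, and both had a peak in each library. The folds of Fau were 23.2, 42.7 and 46.7 in the Active Motif library and Cell Signaling replicates 1 and 2, and those of Rack1 were 24.9, 36.1 and 43.6. Translation factors and other TOP genes had a peak in 16 of 16 cases in each library, with median folds of 14.1, 31.9 and 35.8 that were close to those of the members. Of 20 ribosome biogenesis genes 18 had a peak in all 3 libraries, and Polr1b (RNA polymerase I) and Nob1 (maturation of the small subunit RNA) had one only in both Cell Signaling replicates. Their median folds were 13.3, 18.6 and 29.7, at percentiles 58.8, 48.0 and 54.8 of strength. Of 12 genes of growth signalling, among them Mtor, Larp1 and Myc, 11 had a peak in all 3, and Tsc2, a brake on mTOR, had none in the Active Motif library. Median folds there were 11.5, 19.6 and 25.4, at percentiles 49.6, 49.6 and 48.1.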

How the data were processed

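H3K27ac was profiled by HT-ChIPmentation in AMs of wild-type mice (1 Active Motif and 2 Cell Signaling libraries; the 3 inputs were used only through the authors' peak calling). The authors removed adapters (Cutadapt), mapped reads to mm10 (Bowtie2), dropped duplicates (Picard) and low mapping quality (samtools), and ran MACS3 with input as control at a q-value of 0.05, for each library alone. Reads that also fit a pseudogene may be lost by that filter, and its part in these values was not tested. More than 1 sonicator was used for H3K27ac, and which library had which is not stated. Base calls of the Cell Signaling libraries were made with bcl2fastq 2.20.0.422, according to the submitters' processing notes.

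The deposited lists give for each peak a fold enrichment (ratio) over local background, the −log10 of the p-value and of the q-value, a score and a summit offset, as written by the authors' caller. The p-value and the score were not used here. The smallest deposited −log10 q was 1.31. The lists hold no read counts, so no count-based precision can be given.

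Peaks were joined (overlap of 1 bp) with 41157 TSS of 21644 genes from the GENCODE vM21 basic annotation with Python 3.11.15 and numpy 2.4.6. Sequence came from GRCm38, the assembly of mm10, with samtools 1.23.1 and pysam 0.24.0. The joins were tested on simulated peaks. Coordinates count from 1. The reference TSS is 1 annotated start per gene. Members and lists were chosen with earlier results of these data known, and no test was made. Without replicate groups all comparisons are descriptions of 3 libraries.

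Genes named are 14 landmark members, the paralogs, members without a peak, the 5 with the most and the 5 with the fewest acetylated bases, the 3 highest folds per library and 4 opposite-strand examples; members whose start sequences are printed were chosen for a sequence feature (pyrimidine tract or palindrome); any other is said to be chosen after its values were seen. Alternatives changed the promoter window, the TSS set, the peak threshold, the number of peaks, the summit rule, the symbol rule and the replicates used. A few items are not reported here.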

Additional observations from a re-analysis of the deposited data

How the results depend on the processing

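The number of members with a promoter peak lay between 71 and 77 in 29 alternatives under the same symbol rule, and was lowest, 71 in the Active Motif library, when only the annotated 5′ end of each gene was used. With a q-value of 1e-05 or lower it was 76 for the Active Motif antibody and 77 for each Cell Signaling replicate. With each list limited to its 36364 strongest peaks, with the summit required inside the window, and with a window of 500 bp it was 77 in each library. The limit of 36364 is the size of the Active Motif list, so it changed only the Cell Signaling lists. A wider symbol rule (85 genes) gave 81. The shares of all protein-coding genes under these settings are not given, so the counts do not show whether the contrast with all genes held. Without Cell Signaling replicate 1 or replicate 2, counts over the remaining libraries were 77. That outcome was fixed in advance, since each library held the same 77 genes. The median of acetylated bases over the mean of both Cell Signaling replicates was 1957.75, and 1834.5 and 2101.5 when either replicate was left out, which are the medians of the single replicates and show no stability. The median percentile of strength ranged from 59.4 to 72.3 over 18 alternatives, and members with more bases downstream numbered 54 to 64 over 12 (both sets added after the data were seen). In these results no count moved by over 1.5 times. With 77 of 80 members called, the counts of promoter peaks could not rise by that factor, and only a large fall would have passed it. No paired analysis was possible because no result comes from a test between groups. The lists give no depth, and the Active Motif library had the fewest peaks; their part in missing peaks was not tested.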

Other observations

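Few processed pseudogenes named after ribosomal proteins had a promoter peak. Of 280 such annotated pseudogenes, 4 (1.43%) had a peak in the Active Motif library, 8 (2.86%) in Cell Signaling replicate 1 and 11 (3.93%) in replicate 2. The shares among 9862 other annotated processed pseudogenes were 1.54%, 2.93% and 3.45%, so the named pseudogenes had shares near that background. The part of the authors' filter on mapping quality in these shares was not tested. Of the 280, 251 lay over 5 kb from any protein-coding TSS, and 4, 5 and 8 of them had a peak. Of 9089 other processed pseudogenes that far from such a TSS, 95 (1.05%), 199 (2.19%) and 242 (2.66%) had one. Rpl21-ps1 and Rpl30-ps6 (chosen after their values were seen) had peaks in all 3 libraries, with folds of 14.9, 49.97 and 36.4 at Rpl21-ps1 and 15.3, 25.8 and 38.8 at Rpl30-ps6, in the Active Motif library and Cell Signaling replicates 1 and 2. The nearest protein-coding TSS was 115371 bp from Rpl21-ps1 and 47330 bp from Rpl30-ps6. Starts of non-coding transcripts were not checked.

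Some ribosomal protein genes and paralogs fell outside the symbol rule. Rps3a1, Rpl36al, Rpl22l1 and Rpl7l1 had a promoter peak in each library, with folds at Rps3a1 of 7.84, 19.2 and 26.7 in the Active Motif library and Cell Signaling replicates 1 and 2. Rps27rt, a retrogene copy of Rps27, had no peak and no acetylated base within 5 kb in any library.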
